A study of Mus musculus with 12 samples.

Results

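Transcripts of 7 growth factors and cytokines that macrophages release during tissue repair and fibrosis were followed across 3 groups of mouse alveolar macrophages: Igf1, Pdgfa, Pdgfb, Vegfa, Hbegf, Osm and Grn. They were taken by gene symbol as a fixed set of 7 of the 26855 genes in the deposited table, and all 7 passed the filter on low counts that left 12625 genes for testing. The macrophages were washed from the lungs of mice 14 days after bleomycin, which damages lung tissue and leads to scarring. A size filter split them into fractions with many or few border-associated alveolar macrophages, and they were sorted on side scatter and on BODIPY, which stains neutral lipid. There are 3 groups of 4 SMART-Seq libraries each, made from lysed cells by copying polyadenylated RNA, and their titles UPBIG, UPSMALL and DOWN serve as their names because the labels tie no title to a fraction or gate. Bleomycin, its day, the lavage and the cell type are common to all groups, no uninjured group is analysed here, and the sources used here do not give strain, age or sex. Nothing in the labels says that the replicates are separate mice, so the p-values reflect only how these samples vary, which may be technical variation.

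Insulin-like growth factor 1, made by macrophages as well as by liver and fibroblasts, acts through a receptor tyrosine kinase on neighbouring cells, including fibroblasts and epithelium. The platelet-derived growth factor chains pair as dimers and are among the main mitogens of fibroblasts, while heparin-binding EGF-like growth factor is made as a membrane precursor that must be shed to reach the EGF receptors. Vascular endothelial growth factor A acts on endothelium, oncostatin M is a cytokine of the interleukin-6 family that signals through gp130, and progranulin, the product of Grn, is a secreted protein that sortilin carries to lysosomes, where it is cut into granulins.

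Libraries held 17109669 to 23282621 expected counts, and 1 CPM, the unit of level used here (counts relative to the TMM-scaled library total), stood for 14.66 to 27.23 counts. All 15 alveolar macrophage markers on the fixed list had counts, and their summed level was 122000 to 127000 CPM in UPBIG, 61600 to 121400 CPM in UPSMALL and 79460 to 113000 CPM in DOWN. Lyz2 alone, at 109900 to 112200 CPM in UPBIG, 45580 to 108900 CPM in UPSMALL and 70610 to 102400 CPM in DOWN, made up most of it and was not called in UPBIG against DOWN (0.35 ± 0.20, edgeR adjusted p = 0.259); 7 of the 15 markers were higher there, 1, Car4, was lower, and 7 were not called. UPSMALL replicate 4 held that lowest sum and the lowest limma-voom quality weight of all 12 libraries (0.453). The 9 monocyte markers summed to 250.6 to 320.2 CPM in UPBIG, 622 to 940.5 CPM in UPSMALL and 877 to 945 CPM in DOWN, with none at 0. The 10 dendritic cell markers summed to 11.5 to 20.9 CPM in UPBIG, 41.8 to 102 CPM in UPSMALL and 77.0 to 188 CPM in DOWN, and the 12 T and NK cell markers to 4.34 to 24.5, 2.06 to 8.55 and 29.0 to 107 CPM. The 8 neutrophil markers with counts summed to 382 to 419 CPM in UPBIG, 162 to 219 CPM in UPSMALL and 130.5 to 174 CPM in DOWN, nearly all of it S100a8, at 354.2 to 387, 144 to 205 and 112 to 146.0 CPM. Of the 4 that were tested, S100a8 and Cxcr2 were higher in UPBIG against DOWN and S100a9 (-1.50 ± 1.12) and Csf3r (-0.27 ± 0.20) were not called, while Ly6g and Ngp were not analysed here. Mitochondrial transcripts took 4.05 to 5.19% of counts in UPBIG, 2.68 to 3.43% in UPSMALL and 2.49 to 3.15% in DOWN. Of the 8 fibroblast and smooth muscle markers with counts, Col3a1, Dcn, Lum, Pdgfra and Postn had 1 to 5 counts over the 12 libraries. Col1a2 had 11.9 counts, Tagln 25.5 and Acta2 640. Acta2 was the only 1 tested and was not called, at a log2 fold change of 0.74 in UPBIG against DOWN. In such bulk samples fewer cells of a type and less RNA per cell cannot be told apart.

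Per kilobase of exon, the members spanned a wide range, and Grn and Igf1 stood far above the rest. In UPBIG, UPSMALL and DOWN the mean level of Grn was 435, 358 and 287 CPM per kb, and that of Igf1 was 72.8, 34.2 and 25.4 CPM per kb. Osm followed in each group, at 4.83, 15.7 and 28.3 CPM per kb. Pdgfa had 3.43, 2.40 and 2.54 CPM per kb and Pdgfb 0.970, 2.14 and 3.24 CPM per kb. Pdgfa lay above Pdgfb in UPBIG and UPSMALL, by more in UPBIG, and below it in DOWN. Hbegf stood at 1.07, 0.338 and 0.274 CPM per kb, and Vegfa was the lowest in UPBIG and UPSMALL at 0.0485 and 0.144 CPM per kb. In DOWN, Vegfa stood at 0.354 CPM per kb, a mean that 1 library lifted above Hbegf. In the GENCODE annotation of GRCm38, Igf1 spans chr10:87858265-87937042 and Grn chr11:102430315-102437048, both on the plus strand, as is Osm at chr11:4236420-4241026. Pdgfa at chr5:138976014-138997370, Pdgfb at chr15:79995874-80014977 and Vegfa at chr17:46016993-46032369 lie on the minus strand.

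The sequences before the start sites of Grn and Vegfa are shown because these genes mark the upper and lower ends of that range in UPBIG and UPSMALL. RefSeq on GRCm38.p6 gives a start for 4 of the 7 members, Igf1, Pdgfa, Vegfa and Grn, and a window of 250 bases before it was read 5′ to 3′ on the strand of the gene. Only bases that no annotated exon of the gene covers are printed, all 250 for the first listed start of Vegfa (chr17:46032378-46032627, minus strand) and the first 58 for Grn (chr11:102430257-102430314, plus strand). Capitals mark the GC boxes GGGCGG in Vegfa and the M-box core TCATGTG, here on the opposite strand, in Grn.
Vegfa: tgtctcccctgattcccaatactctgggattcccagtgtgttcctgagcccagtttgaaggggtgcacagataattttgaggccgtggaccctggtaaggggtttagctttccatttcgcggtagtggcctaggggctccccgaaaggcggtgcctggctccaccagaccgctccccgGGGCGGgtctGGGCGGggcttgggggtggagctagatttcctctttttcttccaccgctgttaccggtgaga
Grn: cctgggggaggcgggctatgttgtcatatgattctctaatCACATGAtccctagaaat

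Both strands of each window were searched for 7 short motifs. GGGCGG occurred in 32.9% of 27025 RefSeq promoter windows of the same length, and the Vegfa window held 2 copies, 72 and 62 bases before the start. TCATGTG, the core recognised by MITF and its relatives, occurred in 3.22% of windows and was added with the Grn sequence in view. It lay 210 bases before the RefSeq start of Grn, which falls within the GENCODE span of Grn given above. CACGTG, an E-box that also forms the core of the lysosomal CLEAR element, was in 6.05% of windows, the AP-1 motif TGANTCA in 6.87%, TATAAA in 13.0%, GCGTG, a core of the hypoxia response element, in 28.2%, and the STAT motif TTCNNNGAA in 7.18%. None of these 5 was in the Vegfa window shown or in the whole 250-base window of Grn, which held 1 GGGCGG as well. In windows not shown, GCGTG lay 218 bases before the second listed Vegfa start and 231 before the second listed Pdgfa start. The Igf1 window held GCGTG 196 bases and TGANTCA 37 bases before its start. A match is a run of letters and not a bound site.

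Between UPBIG and DOWN, Igf1, Hbegf and Grn rose and Pdgfb fell, while Pdgfa, Osm and Vegfa did not pass the test. Of the 7 members 4 were called, at a Benjamini-Hochberg adjusted p under 0.05 in edgeR's quasi-likelihood test over all genes, against a background of 17.5% of genes called (9.03% higher and 8.48% lower); 3 members were higher and 1 lower. The same 4 members had groups that did not overlap, which held for 21.4% of all genes. The median log2 fold change of the 7 members was 0.43, and that of all tested genes was -0.03. Between UPBIG and UPSMALL, Igf1 rose and Pdgfb fell, 2 of 7 against 5.7% of genes called (3.22% higher and 2.49% lower), and 3 members had groups that did not overlap, against 11.8% of genes. Between UPSMALL and DOWN no member was called by edgeR, DESeq2 or limma-voom, where edgeR called 1.14% of genes (0.594% higher and 0.547% lower); 2 members, Igf1 and Grn, had an unadjusted edgeR p under 0.05, and Grn alone had groups that did not overlap, against 8.25% of genes. The 3 comparisons share groups and are not independent of each other. Set against the midpoint of UPBIG and DOWN, UPSMALL departed for no member in edgeR, DESeq2 or limma-voom, where edgeR called 0.246% of genes (0.158% above and 0.0871% below the midpoint) and 1 member, Igf1, had an unadjusted p under 0.05.

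The balance of directions depended on the scaling. In UPBIG against DOWN, TMM scaling gave 1140 genes higher and 1070 lower, and library totals alone gave 518 higher and 3237 lower and moved the median of all genes to -0.36 on the log2 scale. In UPBIG against UPSMALL the split was 406 and 314 with TMM and 189 and 1433 with library totals, and in UPSMALL against DOWN it was 75 and 69 with TMM and 61 and 96 with library totals. Members whose call depends on this choice are given with both values, and so are the lists of related genes in UPBIG against DOWN. Among the cell type lists, library totals alone gave 3 alveolar macrophage markers lower in UPBIG against DOWN, where TMM gave 1. They also gave 1 neutrophil marker lower there, where TMM gave 0.

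**Figure D1:**
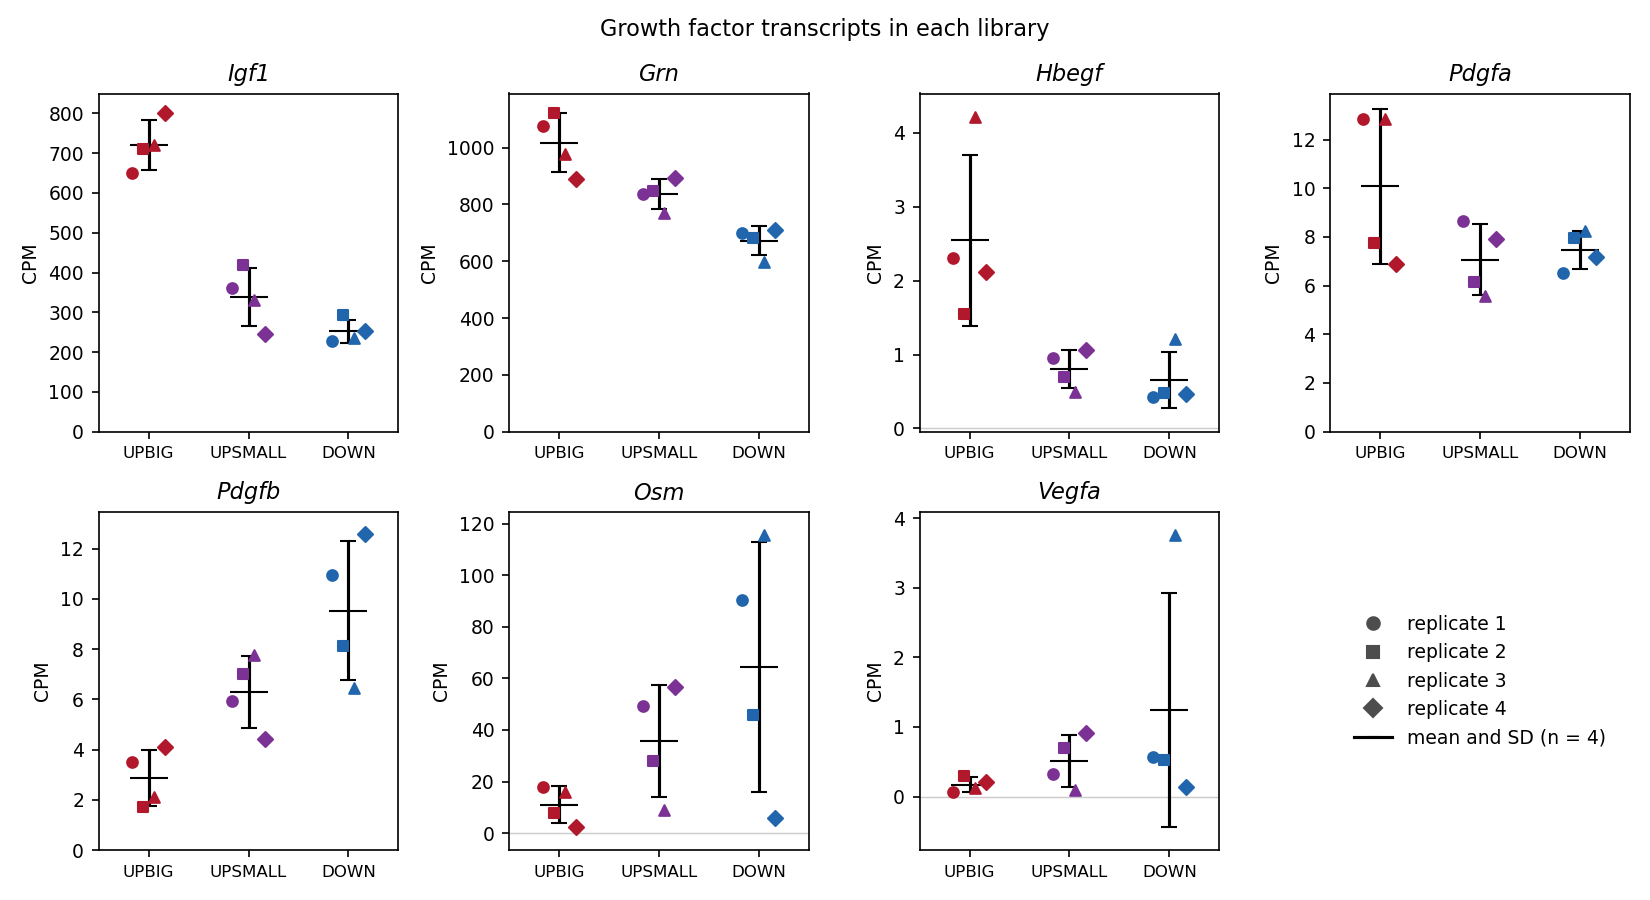
Level of each growth factor transcript in CPM (y axis, linear, a separate scale in each panel) in the 4 libraries of UPBIG, UPSMALL and DOWN (x axis). Symbols are replicates, and the horizontal bar with whiskers is the mean ± SD (n = 4). Igf1 lies between 650.4 and 802 CPM in UPBIG, above every UPSMALL and DOWN library, and Pdgfb lies lower in UPBIG than in the other groups.

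Igf1 was the member with the smallest adjusted p in the comparison of UPBIG with DOWN. It had 650.4, 711, 719.9 and 802 CPM in UPBIG, 361, 419, 331 and 245 CPM in UPSMALL, and 227, 294, 235 and 252 CPM in DOWN. Every UPBIG library stood above every library of the other groups, and UPSMALL and DOWN overlapped through UPSMALL replicate 4, which was the lowest UPSMALL library for Igf1 and also the one that stood apart by its marker sum. The means were 721 ± 62.3, 339 ± 72.7 and 252 ± 29.6 CPM in UPBIG, UPSMALL and DOWN (SD, n = 4 each). The alveolar macrophage marker sum, mostly Lyz2, the neutrophil marker sum, mostly S100a8, and the mitochondrial share were also highest in UPBIG without overlap, and their part in the Igf1 and Grn differences was not tested.

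The log2 fold change of Igf1 was 1.52 ± 0.14 (SE) in UPBIG against DOWN, which is 2.86-fold, with adjusted p = 4.27e-07 in edgeR. Against UPSMALL it was 1.09 ± 0.14, or 2.13-fold, with edgeR adjusted p = 5.43e-05. Both calls held in all 12 fits that left out 1 library. UPSMALL against DOWN gave 0.43 ± 0.14 with edgeR adjusted p = 0.164, and 0.56 with adjusted p = 0.0260 when UPSMALL replicate 4 was left out. The UPSMALL level lay 0.33 ± 0.12 below the midpoint of UPBIG and DOWN on the log2 scale, which was not called (edgeR adjusted p = 0.417). Reads of Igf1os, an antisense gene that overlaps Igf1, cannot be told apart because the strand setting is not given, but it had only 16, 6 and 14 counts in the 3 groups against 46374 counts of Igf1 in UPBIG.

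The 3 genes whose profile over the 12 libraries was nearest to that of Igf1 were Mcoln3, a lysosomal calcium channel, Plin2, a coat protein of lipid droplets, and Fabp5, a fatty acid binding protein. Likeness was the root-mean-square difference of centred log2 CPM over 12 libraries, 0.14, 0.16 and 0.18 for these genes against a median of 0.71 over the candidates. Plin2 had 1002 to 1374 CPM in UPBIG, 394 to 676 CPM in UPSMALL and 381 to 413 CPM in DOWN. Like Igf1, all 3 genes were lowest among the UPSMALL libraries in replicate 4.

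Receptors and binding proteins of the insulin-like growth factors moved in both directions. Igf1r, the receptor that carries the growth signal of IGF1, had 1.05 ± 0.461 CPM in UPBIG, 1.45 ± 0.590 CPM in UPSMALL and 1.83 ± 0.342 CPM in DOWN (SD, n = 4), and its log2 difference of -0.79 ± 0.50 between UPBIG and DOWN was not called (edgeR adjusted p = 0.316). Igf2r, which binds IGF2 and carries lysosomal enzymes by their mannose 6-phosphate tag, rose to 26.9 ± 5.85 CPM in UPBIG, against 14.7 ± 3.52 CPM in UPSMALL and 9.31 ± 1.20 CPM in DOWN. Its log2 fold change was 1.53 ± 0.20 against DOWN (edgeR adjusted p = 2.65e-05) and 0.88 ± 0.20 against UPSMALL (adjusted p = 0.00981, and 0.0598 with library totals alone as the scaling). Igfbp4, a secreted protein that binds insulin-like growth factors, was a low gene with 6.08 counts in UPBIG, 110 counts in UPSMALL and 185 counts in DOWN, and it fell by 4.48 ± 1.03 on the log2 scale in UPBIG against DOWN (edgeR adjusted p = 0.00469, and 0.0720 in limma-voom). The dendritic cell and monocyte marker sums given above were also lower in UPBIG than in DOWN, and their part in the Igfbp4 difference was not tested.

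Grn was the most abundant member. It had 1077, 1123, 979 and 889.8 CPM in UPBIG, 837, 849, 769 and 892 CPM in UPSMALL, and 701, 680.5, 598 and 709.6 CPM in DOWN. The groups stood in that order with a small overlap between UPBIG and UPSMALL, whose replicates 4 had 889.8 and 892 CPM, and none of either with DOWN. The means were 1017 ± 104 CPM in UPBIG, 837 ± 51.2 CPM in UPSMALL and 672 ± 50.8 CPM in DOWN (SD, n = 4 each).

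The log2 fold change of Grn in UPBIG against DOWN was 0.60 ± 0.11 (SE), or 1.51-fold, with edgeR adjusted p = 0.000621. With library totals alone as the scaling it became 0.27 with adjusted p = 0.104; the median of all genes was then -0.36, against -0.03 with TMM, and the Grn value moved down with it. The TMM call held in all 12 fits that left out 1 library. In UPBIG against UPSMALL it was 0.28 ± 0.11 (edgeR adjusted p = 0.149), and 0.002 (adjusted p = 0.994) with library totals alone. In UPSMALL against DOWN it was 0.32 ± 0.11 (edgeR adjusted p = 0.184).

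The profile of Grn was nearest to those of Adipor1, an adiponectin receptor, Sort1, and Psen2, a presenilin, with root-mean-square differences of 0.06, 0.08 and 0.08 against a median of 0.37 over the candidates. Sort1 encodes sortilin, the receptor that takes progranulin to the lysosome. It had 262 ± 20.5 CPM in UPBIG, 214 ± 13.6 CPM in UPSMALL and 173 ± 11.4 CPM in DOWN (SD, n = 4), and rose by 0.60 ± 0.10 in UPBIG against DOWN (edgeR adjusted p = 0.000343, and 0.28 with adjusted p = 0.0832 under library totals alone). Prosaposin, the partner that brings progranulin to lysosomes by another route, is encoded by Psap, which had 1561 ± 293 CPM in UPBIG, 892 ± 244 CPM in UPSMALL and 935 ± 58.4 CPM in DOWN. Psap rose by 0.74 ± 0.16 against DOWN (edgeR adjusted p = 0.00372) and by 0.81 ± 0.16 against UPSMALL (adjusted p = 0.00474), and both calls were lost with library totals alone, at adjusted p = 0.109 and 0.0860.

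Slpi, which encodes an inhibitor of the elastase that cuts progranulin, rose in all 3 comparisons. It had 994 ± 154 CPM in UPBIG, 553 ± 57.5 CPM in UPSMALL and 243 ± 59.7 CPM in DOWN (SD, n = 4). Its log2 fold changes were 2.03 ± 0.15 in UPBIG against DOWN, 0.85 ± 0.15 in UPBIG against UPSMALL and 1.19 ± 0.15 in UPSMALL against DOWN, with edgeR adjusted p = 3.36e-08, 0.00141 and 0.000471, and each was called in all 12 fits that left out 1 library. Ctsl, a lysosomal cathepsin that cuts progranulin into granulins, had 2148 ± 129 CPM in UPBIG, 1418 ± 348 CPM in UPSMALL and 947 ± 227 CPM in DOWN. It rose by 1.18 ± 0.17 in UPBIG against DOWN (edgeR adjusted p = 7.50e-05), and by 0.60 ± 0.17 in UPBIG against UPSMALL (adjusted p = 0.0414), a call that was lost in 9 of 12 fits that left out 1 library and, with library totals alone, fell short at 0.33 (adjusted p = 0.177).

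The 2 platelet-derived growth factor chains did not move together. Pdgfb had 3.49, 1.73, 2.11 and 4.09 CPM in UPBIG, 5.95, 7.00, 7.79 and 4.44 CPM in UPSMALL, and 11.0, 8.14, 6.44 and 12.6 CPM in DOWN. Every UPBIG library stood below every library of the other 2 groups, and UPSMALL and DOWN overlapped. The means were 2.86 ± 1.12 CPM in UPBIG, 6.29 ± 1.44 CPM in UPSMALL and 9.53 ± 2.76 CPM in DOWN (SD, n = 4 each).

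Pdgfb fell by 1.74 ± 0.31 (SE) on the log2 scale in UPBIG against DOWN, to 0.299 of the DOWN level, with edgeR adjusted p = 0.000568, and the call held in all 12 fits that left out 1 library. In UPBIG against UPSMALL it fell by 1.14 ± 0.31, to 0.453 of the UPSMALL level, with edgeR adjusted p = 0.0325. That call was lost without UPBIG replicate 2 (-0.96, edgeR adjusted p = 0.106), UPBIG replicate 3 (-1.02, adjusted p = 0.0952), UPSMALL replicate 1 (-1.17, adjusted p = 0.0581), UPSMALL replicate 2 (-1.09, adjusted p = 0.0762) or UPSMALL replicate 3 (-1.02, adjusted p = 0.101). UPSMALL against DOWN gave -0.60 ± 0.29 with edgeR adjusted p = 0.399. The monocyte and dendritic cell marker sums were also lower in UPBIG than in the other groups without overlap. The endothelium and platelet markers summed to 38.2 to 63.9 CPM in UPBIG, 50.7 to 63.4 CPM in UPSMALL and 40.3 to 63.8 CPM in DOWN. Nearly all of that sum was Vwf and Pf4, with 6659 and 5402 counts over the 12 libraries. No other marker of the list had more than the 111 counts of Pecam1, so the sum says little about endothelium or platelets as such. What part these cell types have in the Pdgfb difference was not tested.

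Pdgfa had 12.8, 7.77, 12.8 and 6.89 CPM in UPBIG, 8.66, 6.15, 5.56 and 7.93 CPM in UPSMALL, and 6.54, 7.94, 8.27 and 7.17 CPM in DOWN. The high values of UPBIG came from replicates 1 and 3, and all 3 groups overlapped. Its log2 fold changes were 0.43 ± 0.24 in UPBIG against DOWN, 0.51 ± 0.24 in UPBIG against UPSMALL and -0.08 ± 0.24 in UPSMALL against DOWN (SE), with edgeR adjusted p = 0.244, 0.268 and 0.932. The antisense gene 6330403L08Rik overlaps Pdgfa and had 161, 186 and 290 counts in UPBIG, UPSMALL and DOWN, against 656, 627 and 631 counts of Pdgfa, so without a known strand setting the Pdgfa values are uncertain.

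**Figure D2:**
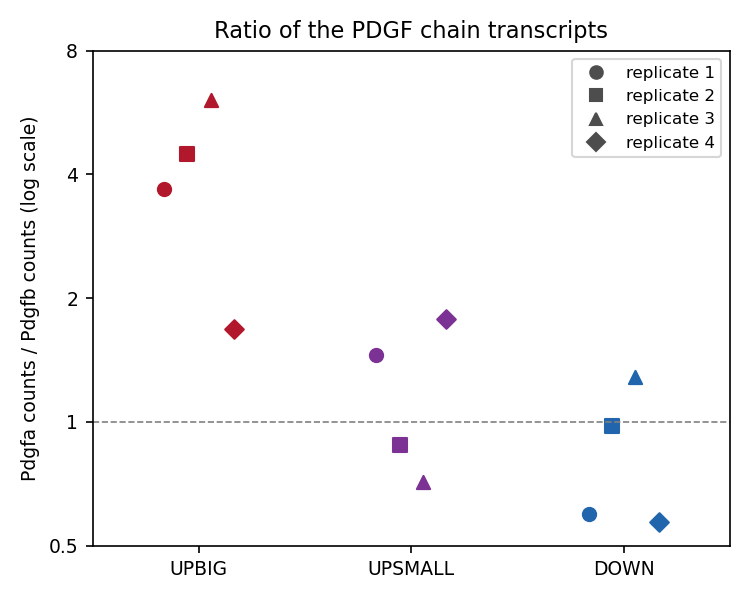
Ratio of Pdgfa counts to Pdgfb counts in each library (y axis, log scale) for UPBIG, UPSMALL and DOWN (x axis), with a symbol for each replicate and a dashed line at equal counts. UPBIG libraries lie between 1.68 and 6.08, UPSMALL between 0.714 and 1.79 and DOWN between 0.569 and 1.28.

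The ratio of Pdgfa to Pdgfb counts within a library does not depend on how libraries are scaled. It was 3.68, 4.48, 6.08 and 1.68 in UPBIG, 1.46, 0.879, 0.714 and 1.79 in UPSMALL, and 0.597, 0.976, 1.28 and 0.569 in DOWN. All 4 UPBIG libraries held more Pdgfa than Pdgfb reads and stood above all DOWN libraries, while UPBIG replicate 4 lay below UPSMALL replicate 4. These ratios use the counts already tested above and are given as a description.

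The profile of Pdgfb was nearest to those of Pilra, an inhibitory receptor of myeloid cells, Ifi27l2a, an interferon-responsive gene, and Ppfia4, a liprin, at root-mean-square differences of 0.31, 0.35 and 0.35 against a median of 0.86. Pilra had 31.1 to 46.9 CPM in UPBIG, 89.1 to 136 CPM in UPSMALL and 120.2 to 142 CPM in DOWN. Pdgfa was nearest to Arl4c, Ptpn12 and Rnf44 at 0.20 to 0.21 against a median of 0.43. Of the third PDGF chain measured, Pdgfc, the level was 20.8 ± 5.20 CPM in UPBIG, 25.1 ± 8.53 CPM in UPSMALL and 23.9 ± 1.78 CPM in DOWN, with a log2 difference of -0.20 ± 0.21 between UPBIG and DOWN (edgeR adjusted p = 0.584). The PDGF receptors were scarcely counted: Pdgfra had 1, 4 and 0 counts in UPBIG, UPSMALL and DOWN, where a count of 0 allows up to 3, and Pdgfrb was not analysed here.

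Hbegf was low in all groups. It had 2.31, 1.55, 4.22 and 2.11 CPM in UPBIG, 0.956, 0.700, 0.489 and 1.07 CPM in UPSMALL, and 0.433, 0.481, 1.22 and 0.472 CPM in DOWN. Every UPBIG library stood above every other library, and UPSMALL and DOWN overlapped. The means were 2.55 ± 1.16 CPM in UPBIG, 0.803 ± 0.259 CPM in UPSMALL and 0.651 ± 0.378 CPM in DOWN (SD, n = 4 each), from 166, 72 and 54 counts.

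Hbegf rose by 1.97 ± 0.56 (SE) on the log2 scale in UPBIG against DOWN, 3.91-fold, with edgeR adjusted p = 0.0184. The call was lost without UPBIG replicate 3, the highest library (1.61, edgeR adjusted p = 0.0930), without DOWN replicate 1 (1.83, adjusted p = 0.0526) or without DOWN replicate 2 (1.87, adjusted p = 0.0526). UPBIG against UPSMALL gave 1.66 ± 0.55 with edgeR adjusted p = 0.0876, while DESeq2 gave 1.68 with adjusted p = 0.0271; UPSMALL against DOWN gave 0.31 ± 0.55 with edgeR adjusted p = 0.873. The neutrophil marker sum, mostly S100a8, was also highest in UPBIG, while S100a9 and Csf3r were not called, and its part in the Hbegf difference was not tested.

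The genes nearest to Hbegf were Sgms2, a sphingomyelin synthase, Tgm2, a transglutaminase that cross-links matrix proteins, and Il1a, the cytokine interleukin-1 alpha, at root-mean-square differences of 0.37 to 0.40 against a median of 0.96. Il1a had 49.4 to 90.0 CPM in UPBIG, 17.04 to 29.3 CPM in UPSMALL and 11.2 to 45.1 CPM in DOWN, and Hbegf and Il1a were both highest among the DOWN libraries in replicate 3. Of the proteases that shed membrane precursors, Adam17 had 72.2 ± 4.48 CPM in UPBIG, 67.3 ± 13.9 CPM in UPSMALL and 76.7 ± 3.85 CPM in DOWN and was not called (log2 difference between UPBIG and DOWN -0.09 ± 0.13, edgeR adjusted p = 0.723; with library totals alone -0.41, adjusted p = 0.0191). Adam9 and Adam10 fell by 0.67 ± 0.14 and 0.57 ± 0.14 in UPBIG against DOWN (edgeR adjusted p = 0.00182 and 0.00635). Egfr, the receptor of HB-EGF on epithelium, had 0 counts in UPBIG, where a count of 0 allows up to 3, 5 counts in UPSMALL and 28 counts in DOWN.

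Other ligands of the EGF family were also measured. Nrg1, a neuregulin, fell by 2.45 ± 0.81 in UPBIG against DOWN, at 24, 111 and 169 counts in UPBIG, UPSMALL and DOWN, and Nrg4 rose by 1.07 ± 0.36, at 522, 592 and 321 counts. Their edgeR adjusted p-values were 0.0431 and 0.0464, and each call was lost in 9 of 12 fits that left out 1 library, at adjusted p up to 0.140 and 0.125. With library totals alone Nrg4 was not called (0.76, adjusted p = 0.124). Areg, amphiregulin, had 7, 61 and 92 counts and a log2 difference of -3.34 ± 1.20 between UPBIG and DOWN that was not called (edgeR adjusted p = 0.0616).

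Osm varied widely within each group. It had 17.8, 7.65, 16.0 and 2.45 CPM in UPBIG, 49.5, 28.0, 8.90 and 56.6 CPM in UPSMALL, and 90.3, 46.0, 115 and 5.80 CPM in DOWN. The lowest library was replicate 4 in UPBIG and DOWN and replicate 3 in UPSMALL, and all groups overlapped. The highest library exceeded the lowest 7.23-fold in UPBIG, 6.37-fold in UPSMALL and 19.9-fold in DOWN.

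The means of Osm were 11.0 ± 7.18 CPM in UPBIG, 35.8 ± 21.6 CPM in UPSMALL and 64.4 ± 48.5 CPM in DOWN (SD, n = 4 each). The log2 fold change was -2.55 ± 0.94 (SE) in UPBIG against DOWN. Its edgeR p was 0.0235 before adjustment and 0.0999 after adjustment over all tested genes, so it was not called. DESeq2 gave -2.54 with adjusted p = 0.0197, library totals alone gave -2.83 with edgeR adjusted p = 0.0496, and leaving out DOWN replicate 4 gave -2.91 with edgeR adjusted p = 0.0359. UPBIG against UPSMALL gave -1.70 ± 0.92 and UPSMALL against DOWN gave -0.85 ± 0.88, with edgeR adjusted p = 0.389 and 0.766.

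The lowest library of Osm in each group was also low in immediate early genes. Cells switch these genes on within minutes of a stimulus, handling during isolation included. Osm was nearest in profile to Egr1 and Btg2, both on the immediate early list, and to Il1b, the cytokine interleukin-1 beta, at root-mean-square differences of 0.55, 0.78 and 0.72 against a median of 1.65. Egr1 had 3.68, 2.81, 4.63 and 0.750 CPM in UPBIG, 20.1, 9.04, 3.29 and 35.7 CPM in UPSMALL, and 18.7, 10.8, 18.1 and 2.83 CPM in DOWN. Osm, Egr1, Il1b and Btg2 were each lowest in UPBIG replicate 4, UPSMALL replicate 3 and DOWN replicate 4.

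The summed level of the 30 immediate early genes was lowest in the same 3 libraries. It was 1061, 703, 1145 and 415 CPM in UPBIG, 1335, 906, 555 and 1534 CPM in UPSMALL, and 1290.0, 918, 1502 and 611 CPM in DOWN. Of 28 tested members of that list, 3 rose and 6 fell in UPBIG against DOWN (2 and 7 with library totals alone). The median log2 fold change of the list was -0.59. With TMM, 9.03% of all tested genes rose there and 8.48% fell. Nr4a3, a nuclear receptor, fell by 4.64 ± 0.65, Fosl2, a subunit of AP-1, by 0.95 ± 0.20, and Dusp5, a phosphatase of ERK, rose by 1.59 ± 0.33 (SE; edgeR adjusted p = 9.39e-05, 0.00309 and 0.00395). Marker sums of monocytes, dendritic cells and T and NK cells were also lower in UPBIG than in DOWN. What part these cell types or the variation in immediate early genes have in the Osm values was not tested.

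**Figure D3:**
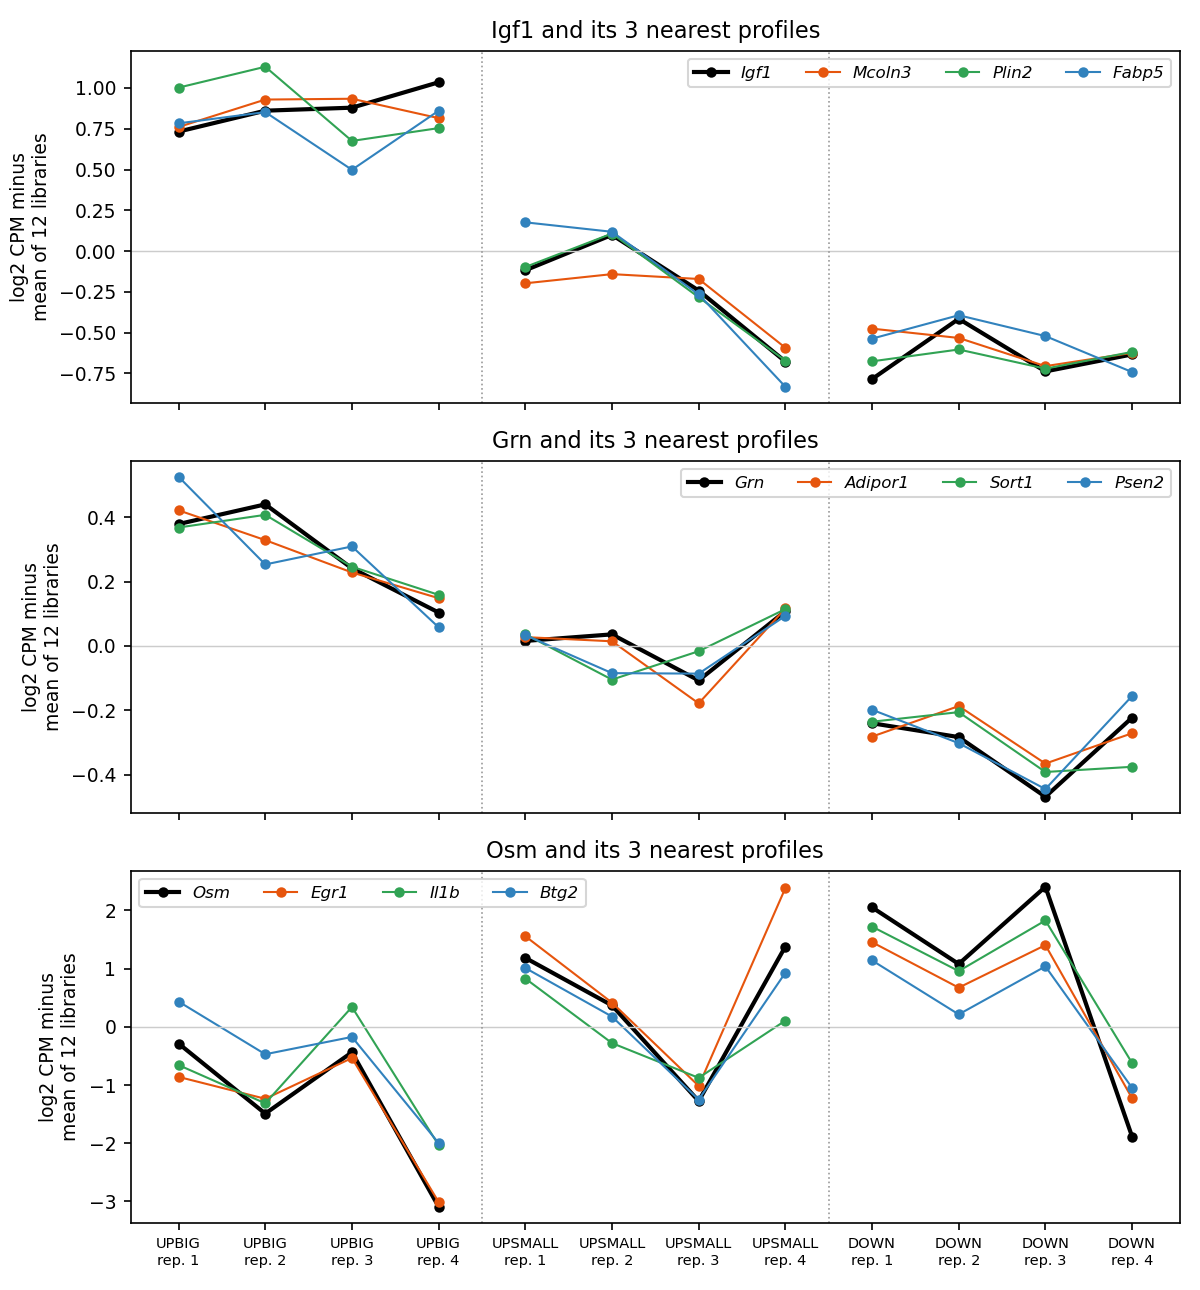
Centred log2 CPM (y axis, log2 CPM minus the gene's mean over the 12 libraries) of Igf1, Grn and Osm, in black, and of the 3 genes nearest to each, in colour, in every library (x axis, UPBIG, UPSMALL and DOWN divided by dotted lines). Osm, Egr1, Il1b and Btg2 are each lowest in UPBIG replicate 4, UPSMALL replicate 3 and DOWN replicate 4, while the 4 UPBIG libraries of Igf1 lie above all others.

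The receptor chains of oncostatin M were unequally counted. Il6st, which encodes gp130, had 19.3 ± 2.83 CPM in UPBIG, 24.7 ± 3.33 CPM in UPSMALL and 22.2 ± 3.43 CPM in DOWN and was not called (log2 difference between UPBIG and DOWN -0.20 ± 0.16, edgeR adjusted p = 0.436; with library totals alone -0.52, adjusted p = 0.0235). Osmr, the specific chain, had 23, 2 and 3 counts in the 3 groups. Lifr, the receptor chain of leukaemia inhibitory factor, which mouse oncostatin M uses little, had 5, 96 and 185 counts and fell by 4.67 ± 0.92 in UPBIG against DOWN (edgeR adjusted p = 0.00143). Without UPBIG replicate 4 the fitted change was -8.48, a value that rests on how counts of 0 are treated and is no bound. Lif itself had 10, 86 and 86 counts and fell by 2.70 ± 0.88 (edgeR adjusted p = 0.0398), a call that was lost in 7 of 12 fits that left out 1 library and in limma-voom (adjusted p = 0.0554).

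The list of STAT3 and STAT5, which act below gp130 and related receptors, also held their kinases, targets and feedback genes. Of its 20 members 5 were lower and none higher in UPBIG against DOWN, beside 8.48% of all tested genes lower and 9.03% higher. The median log2 fold change of the list was -0.23, and with library totals alone 10 fell and none rose. The feedback inhibitors Socs2 and Cish fell by 1.34 ± 0.16 and 1.76 ± 0.31 (SE), with edgeR adjusted p = 7.26e-06 and 0.000568. Socs3, another feedback inhibitor, fell as well (edgeR adjusted p = 0.00630) and had 2.92 ± 1.61 CPM in UPBIG, 5.76 ± 1.12 CPM in UPSMALL and 8.30 ± 3.52 CPM in DOWN (SD, n = 4). The other 2 that fell were Jak2, a kinase that activates STATs, and Ptpn2, a phosphatase that acts on the pathway. The Ptpn2 call was lost in 4 of 12 fits that left out 1 library, at edgeR adjusted p up to 0.074. Socs2 and Cish, both also known as targets of GM-CSF signalling through STAT5, fell in UPBIG against UPSMALL as well, by 0.95 ± 0.16 and 1.54 ± 0.31 (edgeR adjusted p = 0.000752 and 0.00425). They were the only 2 genes of the list called in that comparison, where 5.7% of all tested genes were called, and with library totals alone 8 fell. No gene of this list was called between UPSMALL and DOWN. The monocyte, dendritic cell and T and NK cell marker sums were also lower in UPBIG than in DOWN, and their part in the differences of Lif, Lifr and the STAT list was not tested.

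Vegfa was almost uncounted. It had 1, 5, 2.01 and 3 counts in UPBIG, 6, 14, 2 and 25 counts in UPSMALL, and 13, 11, 73.8 and 3 counts in DOWN, which is 0.0623, 0.299, 0.117 and 0.205 CPM, 0.319, 0.700, 0.0890 and 0.918 CPM, and 0.563, 0.530, 3.75 and 0.141 CPM. DOWN replicate 3 held 73.8 of the 101 counts of its group, and the groups overlapped. The log2 fold change was -2.82 ± 1.01 (SE) in UPBIG against DOWN with edgeR adjusted p = 0.0624, and it became -1.23 with adjusted p = 0.492 without DOWN replicate 3. It passed the threshold with DESeq2 (-2.85, adjusted p = 0.0289), with library totals alone (-3.07, adjusted p = 0.0274), with no filter on low counts (-2.81, adjusted p = 0.0473) and without DOWN replicate 4 (-3.17, adjusted p = 0.0323). UPBIG against UPSMALL gave -1.54 ± 1.01 and UPSMALL against DOWN gave -1.27 ± 0.91, with edgeR adjusted p = 0.471 and 0.603, and the second turned to 0.31 without DOWN replicate 3.

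The genes nearest in profile to Vegfa were Ly6a, Ier3 and Lpar6, at root-mean-square differences of 0.78 to 0.86 against a median of 1.25. None of the 3 was among the nearest without DOWN replicate 3. As for Osm, the part of monocytes, dendritic cells and T and NK cells in the Vegfa values was not tested.

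Vegfb, a relative of Vegfa that binds FLT1, was counted far more and rose in UPBIG. It had 19.8 ± 2.70 CPM in UPBIG, 10.2 ± 1.09 CPM in UPSMALL and 10.1 ± 1.56 CPM in DOWN (SD, n = 4). Its log2 fold change was 0.97 ± 0.18 against DOWN and 0.96 ± 0.18 against UPSMALL (edgeR adjusted p = 0.000741 and 0.00199), and 0.01 ± 0.18 in UPSMALL against DOWN (adjusted p = 0.988). Flt1, a receptor of both, rose by 0.85 ± 0.19 in UPSMALL against DOWN (edgeR adjusted p = 0.0322), at 21.4, 31.4 and 17.4 CPM in UPBIG, UPSMALL and DOWN, a call that was lost in 6 of 12 fits that left out 1 library, at adjusted p up to 0.113. Nrp1, a co-receptor, had 39.9 ± 5.76 CPM in UPBIG, 48.4 ± 11.5 CPM in UPSMALL and 48.4 ± 10.4 CPM in DOWN and was not called (-0.28 ± 0.18 in UPBIG against DOWN, edgeR adjusted p = 0.319; with library totals alone -0.59, adjusted p = 0.0116).

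Vegfa is a classic target of the hypoxia-inducible factors, and a list of such factors, their regulators and their targets did not move in one direction. Of 25 tested, 2 rose and 4 fell in UPBIG against DOWN, beside 17.5% of all tested genes called. The median log2 fold change of the list was -0.18, and with library totals alone 2 rose and 12 fell. Epas1, which encodes HIF-2 alpha, rose to 98.0 ± 3.96 CPM in UPBIG, against 45.5 ± 2.52 CPM in UPSMALL and 26.8 ± 4.70 CPM in DOWN (SD, n = 4). Its log2 fold changes were 1.87 ± 0.13 in UPBIG against DOWN, 1.11 ± 0.13 in UPBIG against UPSMALL and 0.76 ± 0.13 in UPSMALL against DOWN, with edgeR adjusted p = 9.77e-09, 1.44e-05 and 0.00486. The other gene that rose was the target Mxi1, and the 4 that fell were Hif1a and the targets Pfkfb4, Slc2a1 and Ndrg1. The calls of Slc2a1 and Ndrg1 were each lost in 8 of 12 fits that left out 1 library, at edgeR adjusted p up to 0.140 and 0.166. That of Pfkfb4 was lost in 2. Ndrg1 was also not called with DESeq2-type size factors or the replicate block (edgeR adjusted p = 0.0513 and 0.0720). Hif1a, which encodes HIF-1 alpha, fell by 0.62 ± 0.13 in UPBIG against DOWN, with 56.4 ± 6.78 CPM in UPBIG, 66.9 ± 5.04 CPM in UPSMALL and 86.6 ± 13.2 CPM in DOWN (edgeR adjusted p = 0.00228).

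**Figure D4:**
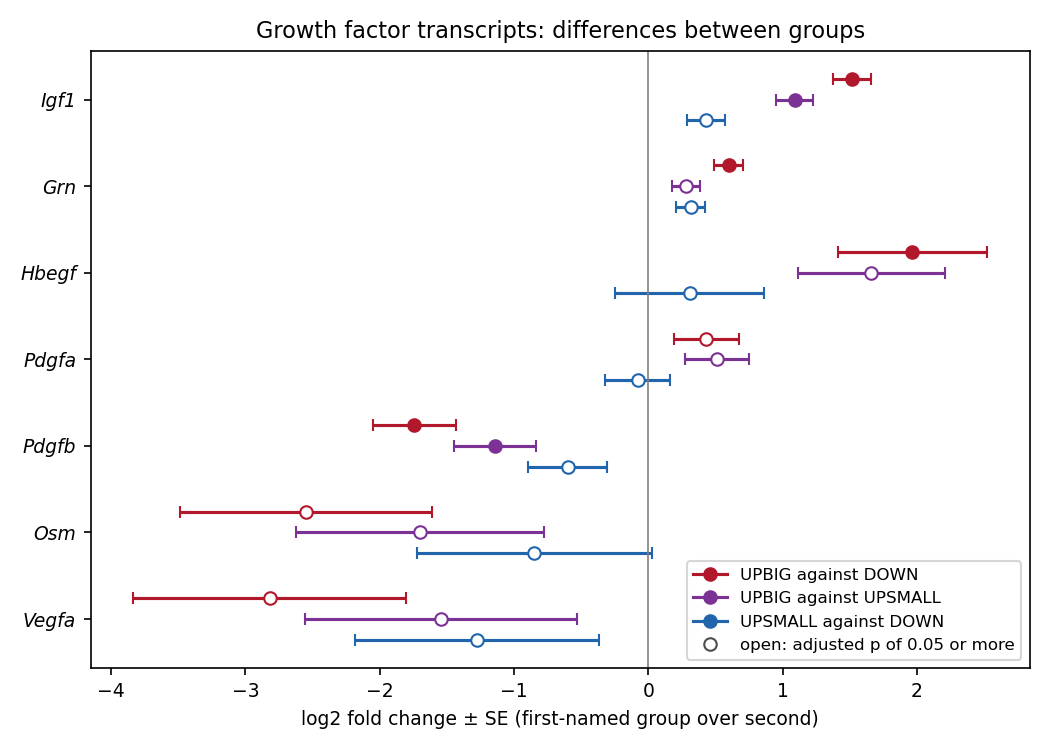
Log2 fold change ± SE (x axis, the first-named group over the second) of the 7 growth factor transcripts (y axis) in UPBIG against DOWN, UPBIG against UPSMALL and UPSMALL against DOWN, from edgeR. Filled points passed an adjusted p of 0.05: Igf1, Grn, Hbegf and Pdgfb in UPBIG against DOWN and Igf1 and Pdgfb in UPBIG against UPSMALL. The bars of Osm and Vegfa are the widest.

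Beyond the families of the 7 members, 28 other growth factors of repair were listed and 11 passed the filter on low counts. Of these 11, 2 rose and none fell in UPBIG against DOWN, where 17.5% of all tested genes were called. The same 2, Gdf15 and Angptl4, rose in UPBIG against UPSMALL, where 5.7% of all tested genes were called. With library totals alone these counts were 2 and 3 against DOWN, and 1 and 2 against UPSMALL. Gdf15, a stress-induced relative of the TGF-beta family, had 40.6 ± 3.79 CPM in UPBIG, 22.3 ± 6.79 CPM in UPSMALL and 12.2 ± 4.60 CPM in DOWN (SD, n = 4). It rose by 1.74 ± 0.24 against DOWN and by 0.87 ± 0.23 against UPSMALL (edgeR adjusted p = 6.21e-05 and 0.0353), and the second call was lost in 6 of 12 fits that left out 1 library and with library totals alone (0.58, adjusted p = 0.120). Angptl4, an inhibitor of lipoprotein lipase, had 59.6 ± 6.55, 33.7 ± 7.01 and 26.9 ± 2.34 CPM and rose by 1.15 ± 0.15 and 0.82 ± 0.15 (edgeR adjusted p = 2.25e-05 and 0.00152). Hgf, hepatocyte growth factor, had 6.62 ± 1.20 CPM in UPBIG, 9.58 ± 0.948 CPM in UPSMALL and 10.1 ± 1.81 CPM in DOWN, and its log2 difference of -0.61 ± 0.21 between UPBIG and DOWN lay at the threshold (edgeR adjusted p = 0.0502; DESeq2 0.0401). No gene of this list was called between UPSMALL and DOWN.

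Over the other lists, same-family ligands had 2 of 9 tested genes higher and 2 lower in UPBIG against DOWN (median log2 fold change -0.39), receptors 4 of 16 higher and 1 lower (0.11), and binding, processing and partner proteins 12 of 29 higher and 5 lower (0.70), beside -0.03 for all genes. With library totals alone the same lists had 1 higher and 3 lower, 1 higher and 3 lower, and 9 higher and 8 lower, so the balance among receptors turned. In UPBIG against UPSMALL these lists had 1 and 0, 1 and 1, and 7 and 5 genes higher and lower (1 and 1, 0 and 4, and 1 and 7 with library totals alone). In UPSMALL against DOWN only Flt1 and Slpi were called, both higher. Over all tested genes, edgeR with TMM called 17.5% in UPBIG against DOWN, 5.7% in UPBIG against UPSMALL and 1.14% in UPSMALL against DOWN. Among the processing proteins that fell in UPBIG were Mmp14, a membrane-bound matrix metalloproteinase, by 0.86 ± 0.13 against DOWN and by 0.83 ± 0.13 against UPSMALL (edgeR adjusted p = 9.91e-05 and 0.000341). Furin, the proprotein convertase that cuts PDGF precursors, fell by 0.70 ± 0.23 and 0.95 ± 0.23 (adjusted p = 0.0398 and 0.0160), calls that were lost in 7 and in 3 of 12 fits that left out 1 library.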

How the data were processed

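SMART-Seq libraries of 12 mouse alveolar macrophage samples were analysed. The deposited table holds one expected count per gene and library, which the authors obtained with STAR and RSEM on mm10, per the submitters' processing notes (versions, strand setting and annotation: not given in the sources used here). Of 26855 identifiers, 26775 matched a symbol in GENCODE M21 (GRCm38, the same assembly), which also gave exon lengths. Counts were rounded (13.8% were not whole) and filtered with filterByExpr, and all 12 libraries were fitted together in edgeR 4.0.16 (under R 4.3.3) by the quasi-likelihood method with robust dispersion, TMM factors and group alone as the model. Calls needed a Benjamini-Hochberg adjusted p under 0.05 over 12625 genes, and standard errors were taken as |log2 fold change| divided by the root of F. Reads were not collapsed to molecules, so a limit set from counts covers counting error only.

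The members and the 7 related gene lists and 10 cell type lists were chosen with earlier results of these data known, so no list was tested as a set. The text names every member, up to 3 called genes of smallest p per list and comparison, called genes of small counts, receptors and partners of members, and the 3 genes nearest in profile (log2 CPM of at least 3 on average). Areg was chosen after its values were seen. Alternatives were the fit rescaled by DESeq2-type size factors or by plain library totals, DESeq2 1.42.0 itself, weighted limma-voom (limma 3.58.1), no filter, a filter of 5 CPM in 4 libraries, a replicate block, only the 8 libraries compared, and each library left out. The edgeR fit was tested on simulated counts.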

Additional observations from a re-analysis of the deposited data

Results flagged for a closer look

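Of 21 sets of 4 libraries (7 members in 3 groups), 2 held a library whose gap to its nearest neighbour was too large a part of the range by Dixon's 95% criterion for 4 samples; chance flags about 1 in 20 such sets. Both were DOWN replicate 3. Hbegf stood at 1.217 CPM there, against 0.433 to 0.481 CPM in the other DOWN libraries. Vegfa stood at 3.75 CPM there, against 0.141 to 0.563 CPM in the other DOWN libraries.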

How the results depend on the processing

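Igf1 in UPBIG against DOWN and against UPSMALL and Pdgfb in UPBIG against DOWN kept direction and call under every alternative that gave them a value. Library totals alone gave 3755 calls in UPBIG against DOWN, 1622 in UPBIG against UPSMALL, 3021 for any difference and 66 for the midpoint; Vegfa (-3.07) and Osm (-2.83) then passed in UPBIG against DOWN, with 3 members lower, while Grn (0.27) and the joint tests of Hbegf and Grn (adjusted p = 0.0523 and 0.163) did not. With DESeq2, 393 genes were called in UPSMALL against DOWN and 129 for the midpoint, Vegfa (-2.85) and Osm (-2.54) passed in UPBIG against DOWN, with 3 members lower, and Hbegf (1.68) in UPBIG against UPSMALL, with 2 members higher. Limma-voom gave 226 and 50 calls, and turned the midpoint values of Vegfa and Grn to -0.14 and -1e-04. No filter gave 460 and 241 calls, with Vegfa (-2.81; 2 members lower) and Igf1 in UPSMALL against DOWN (0.44; 1 member higher) past the threshold; the 5 CPM filter gave 47 midpoint calls and dropped the low members. In the 8 libraries of UPBIG and UPSMALL alone, Pdgfb (-1.14, adjusted p = 0.0512) was not called, leaving 0 members lower. The replicate block gave 275 calls in UPSMALL against DOWN and 103 for the midpoint, against 144 and 31 in the main fit. Same-numbered libraries correlated at -0.03 to 0.15, with 6 of 12 over 0.1. The rule for pairing asked for all 12, so the numbers were not taken as pairs. Yet 18 of 24 comparisons of a library with another group were highest with its own number. Without pairing, each of the 4 libraries would be highest about equally often, so the main p-values may ignore a shared origin. The block changed no member's call. The cause of these changes was not tested.

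Leaving out each library in turn gave, for UPBIG against DOWN, 1.61 to 2.46 for Hbegf, -3.23 to -1.23 for Vegfa and -2.91 to -2.09 for Osm, with 1 to 3 members lower; for UPBIG against UPSMALL, -1.36 to -0.96 for Pdgfb, with 0 to 1 members lower; and for UPSMALL against DOWN, 58 to 179 calls, 0.31 to 0.56 for Igf1, with 0 to 1 members higher, -0.18 to 0.0205 for Pdgfa and -1.73 to 0.31 for Vegfa. The joint test of Hbegf gave adjusted p = 0.0153 to 0.170. Midpoint calls numbered 24 to 60, with -0.33 to 0.93 for Vegfa and -0.0152 to 0.0551 for Grn. Reversals were Pdgfa without UPSMALL replicate 3 (0.0205) and Vegfa without DOWN replicate 3 (0.31) in UPSMALL against DOWN, and at the midpoint Vegfa without UPSMALL replicates 2 or 4 or DOWN replicate 4 (-0.0515, -0.33, -0.0417) and Grn without UPBIG replicate 4, UPSMALL replicate 4 or DOWN replicate 3 (-0.0127, -0.0152, -0.0067). How many of the 3 nearest genes stayed was added after seeing the data: 2 or 3 under other scalings, and 0 to 3 with a library left out, Vegfa without DOWN replicate 3 keeping 0. Vegfa rests on 11.0, 47 and 101 counts in UPBIG, UPSMALL and DOWN.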
